A study of Mus musculus with 39 samples.

Results

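The CpGs described here were those that stayed highly methylated in naive wild-type (WT) mouse embryonic stem cells, a state in which most of the genome loses DNA methylation. They were chosen by a single value, total methylation of at least 80% in naive WT cells, and 1734 of the 330387 CpGs in the deposited table of single CpGs met it (0.525%). That value and every contrast with the naive WT column are therefore given as a description of the choice. The values in the other groups, the positions of the CpGs, the oxidative libraries and the liver did not enter the choice.

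The study profiled DNA methylation by reduced representation bisulfite sequencing (RRBS), which sequences MspI fragments and so samples CpG-rich DNA. RRBS reads 5-methylcytosine (5mC) and 5-hydroxymethylcytosine (5hmC) together, called total methylation here, and the oxidative form (oxRRBS) reads 5mC alone, so that 5hmC is the total minus 5mC. The series holds 39 libraries in 10 groups, 33 of them from embryonic stem cells and 6 from liver. It asks how loss of p53, the tumour suppressor and DNA-binding regulator of stress responses, changes methylation in these cells.

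The embryonic stem cells were derived from morulas at embryonic day 2.5 from matings of heterozygous 129s-Trp53tm2Tyj/J mice, and were either p53-null (p53 -/-) or WT. All lines were derived on irradiated embryonic fibroblast feeders in 2i medium. RA-treated cells were depleted of feeders, plated on gelatin and given 1 uM retinoic acid for 4 days to induce differentiation, and gave 4 p53-null and 5 WT RRBS libraries and 4 p53-null and 4 WT oxRRBS libraries. Naive cells were kept in 2i, a pair of kinase inhibitors, with the cytokine LIF, and gave 3 p53-null and 5 WT libraries with each assay. Liver came from male mice of 16 weeks bred from heterozygous parents, with 3 p53-null and 3 WT RRBS libraries. The labels do not say which numbered libraries come from separate lines or animals.

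Cells in 2i lose methylation because maintenance and de novo methylation by the DNMT enzymes weaken while TET enzymes oxidise 5mC to 5hmC. Differentiation with retinoic acid ends this state and methylation is laid down again over much of the genome. Sequences known to hold methylation in naive cells are the control regions of imprinted genes and certain families of retrotransposons. In most tissues, CpG-poor DNA is highly methylated and CpG islands are not.

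Each group is 1 column of values pooled by the authors, with no read counts. Depth is therefore unknown, and the values carry no SD over libraries, no interval and no p-value. No difference below was set against the variation among libraries, which was not tested. Where a spread is given it is over CpGs or over the 20 chromosomes with at least 1000 measured CpGs. That spread says nothing of the libraries, and neighbouring CpGs share reads.

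In all groups the 1734 CpGs stayed among the highly methylated part of the genome. Their mean total methylation was 78.2% in RA-treated p53-null cells, 81.9% in RA-treated WT cells, 84% in naive p53-null cells and, by the choice, 85.8% in naive WT cells. Over all 330387 CpGs the means were 15.1%, 16.3%, 12.6% and 9.77% in the same order of groups. The medians of the 1734 CpGs were 79% in RA-treated p53-null, 83% in RA-treated WT, 86% in naive p53-null and 84% in naive WT cells. The lowest values were 35%, 33%, 20% and 80% in that order, so no member was unmethylated in any group. At the low end, 5% of members were at or below 58% in RA-treated p53-null, 64% in RA-treated WT and 63% in naive p53-null cells. A lower level in every cell and a smaller share of methylated cells or alleles cannot be told apart in such values.

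**Figure D1:**
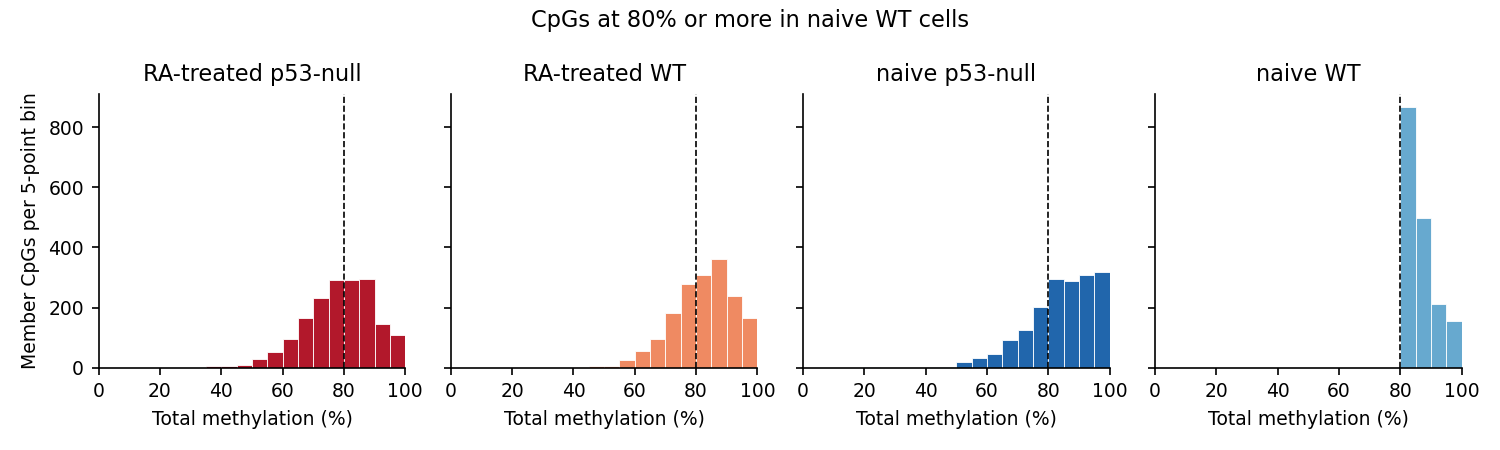
Total methylation (x axis, percent) of the 1734 CpGs in the 4 embryonic stem cell groups, as the number of CpGs per bin (y axis). The dashed line marks 80%, the level in naive WT cells that chose the CpGs. The lowest values are 35% in RA-treated p53-null, 33% in RA-treated WT and 20% in naive p53-null cells. The median of RA-treated p53-null cells is 79%, just under the line, while those of RA-treated WT and naive p53-null cells lie above it at 83% and 86%.

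Fewer members held the 80% level in p53-null than in WT cells after retinoic acid. At 80% or more were 840 members in RA-treated p53-null cells (48.4%) and 1077 in RA-treated WT cells (62.1%), and in naive p53-null cells there were 1209 (69.7%). Most of the others remained close, with 787 members in RA-treated p53-null cells, 612 in RA-treated WT cells and 465 in naive p53-null cells at 60% to 79%. Members under 60% numbered 107, 45 and 60 in that order, and those under 50% numbered 25, 12 and 10. Of all CpGs at 80% or more, the members made up 13.1% of the 6426 in RA-treated p53-null cells, 9.81% of the 10974 in RA-treated WT cells and 17.3% of the 6987 in naive p53-null cells. Most CpGs at this level in the other groups were thus below 80% in naive WT cells.

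The members divided by how many of the other 3 groups also stood at 80% or more. All 3 did at 516 members (29.8%), exactly 2 at 572 (33.0%), 1 at 434 (25%) and none at 212 (12.2%). The most frequent partial pattern was at or above 80% in every group except RA-treated p53-null cells, with 301 members (17.4%). Over all CpGs, too, RA-treated p53-null cells had the lowest share at 80% or more of these 3 groups. It was 1.94%, against 3.32% in RA-treated WT and 2.11% in naive p53-null cells. How often each pattern arises among other CpGs was not analysed. Next among the members came 271 (15.6%) at 80% or more in both naive genotypes and in neither RA-treated group. Another 150 members held it in both RA-treated groups but not in naive p53-null cells, and 110 held it in WT cells of both states only.

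A small set stood apart from the rest. At 42 members, on 16 chromosomes, the table lists 100% in all 4 groups. Any such CpG is a member by the choice. In the authors' other table, of 200 bp tiles, the tiles of these 42 CpGs averaged only 53.6% in p53-null and 55.7% in WT cells. These values are from the second set of columns, described further on. Results were recomputed without these 42 CpGs. Such a CpG has no difference between groups, so this step could not change the sign of any difference at the CpGs.

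Just inside the limit, the 868 CpGs at 80% to 84% in naive WT cells averaged 76.7% in RA-treated p53-null cells, 80.8% in RA-treated WT cells and 81.9% in naive p53-null cells. Just outside it, the 1470 CpGs at 75% to 79% averaged 74.8%, 79.04% and 78.9% in the same groups. The limit thus cuts a continuous range.

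Set beside CpGs of lower naive WT level, the members were the only class among 6 whose mean was lower in every other group than in naive WT cells, a pattern that the choice by a high naive WT value favours. For the 10721 CpGs at 60% to 79% in naive WT cells, the means were 71.7% in RA-treated p53-null, 76.0% in RA-treated WT and 73.4% in naive p53-null cells. In naive cells the p53-null minus WT difference was -1.85 percentage points at the members, against 6.0 points in the class at 60% to 79% and 2.82 points over all CpGs. The RA-treated minus naive difference in WT cells was -3.96 points at the members, against 8.55 points at 60% to 79% and 6.48 points over all CpGs. Both contrasts hold the value that chose the members and show nothing beyond it.

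**Figure D2:**
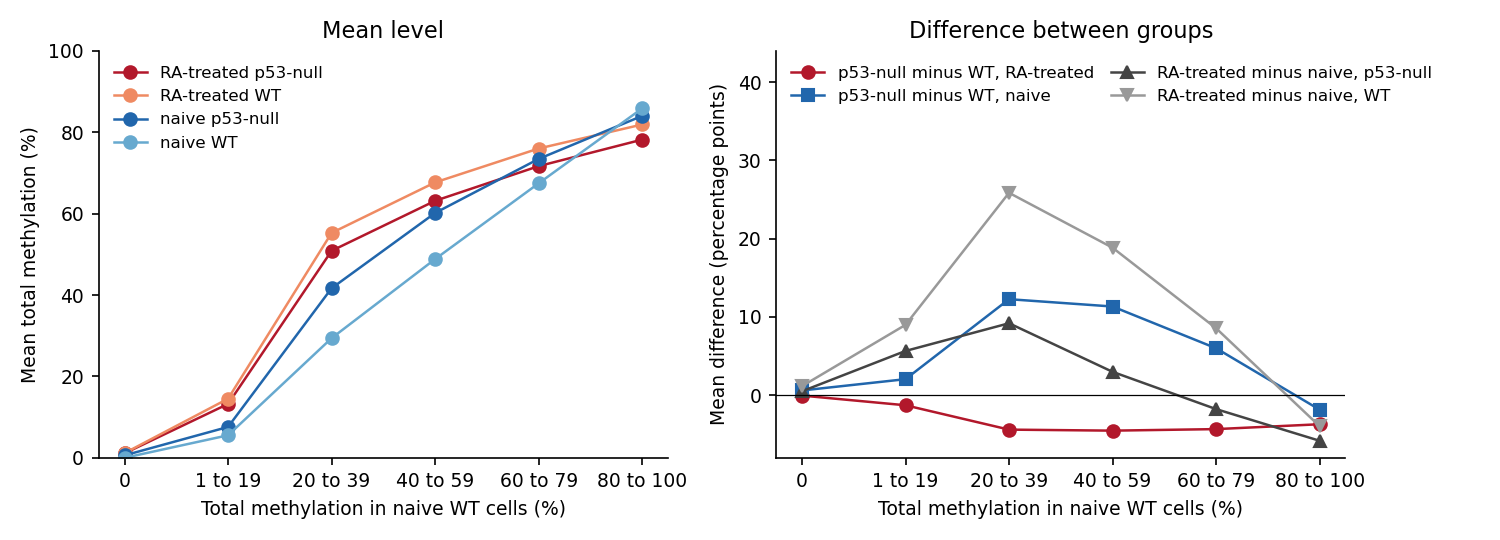
Left, mean total methylation (y axis, percent) of CpGs in 6 classes of naive WT level (x axis), with a line for each group; right, the mean differences between groups in percentage points. The p53-null minus WT difference in RA-treated cells, which does not use the naive WT value, is -4.40, -4.53, -4.33 and -3.71 points in the 4 classes from 20% upward, while the other 3 differences turn negative toward the members at the right.

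In RA-treated cells, where neither column entered the choice, p53-null cells had less methylation at the members. The mean was 78.2% in p53-null and 81.9% in WT cells, a difference of -3.71 points, with an SD over members of 10.4 points. The p53-null value was lower at 1071 members, higher at 557 and equal at 106. On each of 20 chromosomes the p53-null mean was the lower, by differences of -5.56 to -1.80 points. Over all CpGs the difference was -1.17 points, and in the class at 60% to 79% it was -4.33 points, so the members did not exceed the neighbouring class.

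By at least 10 points, 460 members were lower in RA-treated p53-null than in RA-treated WT cells (26.5% of members, against a background of 9.1% of all CpGs). Higher by as much were 159 members (9.17%, against a background of 3.45%). In the class at 60% to 79% the shares were 30.2% lower and 9.19% higher, so both shares of the members were close to those of the next class. At 25 points or more, 53 members were lower (3.06%, background 1.15%) and 14 were higher (0.807%, background 0.281%). No member differed by 50 points in this contrast.

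The members with the largest negative difference included a CpG on chromosome 12 (mm9, 71687615 to 71687616), at 44% in RA-treated p53-null and 88% in RA-treated WT cells. It was at 81% in naive p53-null and 87% in naive WT cells, so only RA-treated p53-null cells stood apart. The same arrangement was seen on chromosome 7 (136154078 to 136154079), with 47% in RA-treated p53-null, 89% in RA-treated WT, 78% in naive p53-null and 86% in naive WT cells. On chromosome 13 (98721015 to 98721016) the values were 53%, 92%, 100% and 83% in that order of groups. A CpG on chromosome 10 (10439754 to 10439755) differed from these, since it was low in p53-null cells of both states, at 54% and 58%, and high in WT cells of both states, at 92% and 90%. The last of the 5 was on chromosome 6 (60423404 to 60423405), at 62% in RA-treated p53-null cells and 100% in RA-treated WT cells.

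In the opposite direction, a CpG on chromosome 10 (33409552 to 33409553) was at 89% in RA-treated p53-null and 55% in RA-treated WT cells, with 79% in naive p53-null and 81% in naive WT cells. Here RA-treated WT cells were the group that stood apart. On chromosome 6 (117382019 to 117382020) the values were 100% in RA-treated p53-null, 67% in RA-treated WT, 94% in naive p53-null and 83% in naive WT cells. A CpG on chromosome 3 (128990317 to 128990318) was at 96% in RA-treated p53-null and 63% in RA-treated WT cells, and reversed the order of genotypes in naive cells, with 61% in p53-null and 82% in WT. On chromosome 10 (75639150 to 75639151) RA-treated p53-null cells were at 100% and RA-treated WT cells at 70%. The fifth, on chromosome 12 (55727305 to 55727306), was at 88% in RA-treated p53-null and 58% in RA-treated WT cells.

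Within p53-null cells, RA-treated values were the lower at the members and the higher over all CpGs. Neither column was the chosen one, but the naive p53-null column shares its state with it. The choice of high naive WT values thus favours high naive p53-null values, at 84% for members against 12.6% for all CpGs. The mean was 78.2% in RA-treated and 84% in naive p53-null cells. The difference was -5.82 points and was negative on 20 of 20 chromosomes, from -8.97 to -1.0 points. All CpGs differed by 2.49 points and the class at 60% to 79% by -1.78 points. In the classes at 20% to 39% and 40% to 59% the difference was 9.19 and 2.99 points. From 20% upward it thus fell as the naive WT level rose. Lower by at least 10 points in RA-treated p53-null cells were 647 members (37.3%, background 4.46%), and higher by as much were 196 (11.3%, background 14.1%). In the class at 60% to 79% these shares were 29.3% and 21.5%. The naive p53-null column lies near 100% for many members, 147 of them at 100%, and at such a CpG only a lower value is possible in RA-treated cells.

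For description only, 492 members were lower by at least 10 points in RA-treated than in naive WT cells (28.4%, background 0.802%) and 146 were higher (8.42%, background 23.8%). In naive cells, 382 members were lower by at least 10 points in p53-null than in WT cells (22.03%, background 1.88%) and 246 were higher (14.2%, background 14.0%). A member can exceed its naive WT value by at most 20 points, which bounds the second of each pair of counts.

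Some members were low in the RA-treated groups. The lowest RA-treated WT value was on chromosome 17 (81540372 to 81540373), at 33%, and RA-treated p53-null cells were at 38% there, against 89% in naive p53-null and 82% in naive WT cells. Both RA-treated groups were likewise low on the X chromosome (26006648 to 26006649), with 45% in RA-treated p53-null, 42% in RA-treated WT, 92% in naive p53-null and 81% in naive WT cells. On chromosome 14 (38491143 to 38491144) the values were 53%, 40%, 100% and 83% in that order. On chromosome 19 (14001489 to 14001490) they were 58%, 44%, 75% and 88%, and on chromosome 17 (23773421 to 23773422) they were 67%, 39%, 64% and 80%. At these CpGs the naive p53-null value was above or close to the RA-treated ones. They were named for their low RA-treated WT values, which favours this order.

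Naive p53-null cells had their own low members. The lowest were on chromosome 4, at 20% (151411354 to 151411355) and at 24% (139147105 to 139147106). The first of these was at 84% in RA-treated p53-null, 70% in RA-treated WT and 83% in naive WT cells. The second was at 81%, 71% and 83% in those groups, so at both CpGs naive p53-null cells alone were under 50%. The next were on chromosome 13 (28959162 to 28959163) at 36%, on chromosome 1 (184740918 to 184740919) at 43% and on chromosome 12 (48432729 to 48432730) at 44%. These 5 CpGs were at 60% to 84% in RA-treated p53-null cells and at 54% to 72% in RA-treated WT cells, above their naive p53-null values in each case. They were named for the lowest naive p53-null values among the members, which favours higher values in the other groups.

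The genotype differences of both states are set side by side as a description, since the naive one holds the value that chose the members. Lower in p53-null cells by at least 10 points in RA-treated and in naive cells were 123 members (7.09%, background 0.624%). They make up 26.7% of the 460 members lower in RA-treated cells, where 22.03% of all members were lower in naive cells, and 32.2% of the 382 lower in naive cells, where 26.5% of all members were lower in RA-treated cells. Over the 1734 members the difference in RA-treated cells and that in naive cells had a Pearson r of 0.035 and a Spearman rho of 0.036, against r = -0.12 over all CpGs. The levels in RA-treated p53-null and RA-treated WT cells had r = 0.55 and rho = 0.53, and those in RA-treated and naive p53-null cells r = 0.29 and rho = 0.27. These are descriptions across CpGs that share libraries, columns and unequal depth, within a range narrowed by the choice. Over all 330387 CpGs the same pairs of levels had r = 0.97 and r = 0.92.

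At 6 members the p53-null value was lower by 25 points or more in both states (0.346%, background 0.0188%), a count that again includes the naive contrast. Apart from the CpG on chromosome 10 above, they included chromosome 3 (102774903 to 102774904), at 36% in RA-treated p53-null and 69% in RA-treated WT cells, and at 54% in naive p53-null and 82% in naive WT cells. On chromosome 14 (17980472 to 17980473) the values were 42%, 76%, 60% and 90% in that order. On chromosome 4 (120029409 to 120029410) RA-treated and naive p53-null cells were at 64% and 63%, and RA-treated and naive WT cells at 93% and 90%. Another on chromosome 4 (71512666 to 71512667) was at 47% and 54% in p53-null and at 72% and 90% in WT cells. These CpGs were named after their values were seen.

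Position, which the choice did not use, set the members apart from most measured CpGs: they had few measured CpGs around them. Only measured CpGs were counted, and the CpG content of the sequence itself was not analysed. Counted in 200 bp tiles, 1307 members (75.4%) were the single measured CpG of their tile, while 19.2% of all CpGs were. Tiles with 2 measured CpGs held 306 members, those with 3 to 4 held 104 and those with 5 to 8 held 17. No member lay in a tile with 9 or more measured CpGs, where 90638 CpGs (27.4%) lie. A count of 0 among these allows a share of up to 0.00331%, for counting error only and with each CpG taken as independent. CpGs this close can share reads, so the true limit is not known. The share of CpGs that were members was 2.06% in tiles with 1 measured CpG, 0.751% with 2, 0.191% with 3 to 4 and 0.0210% with 5 to 8.

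The mean number of measured CpGs in the tile was 1.35 for members, 1.40 for CpGs at 60% to 79% and 6.05 for all CpGs. Within 500 bp on each side it was 1.70, 1.80 and 14.3 in that order. The low density of measured CpGs was thus shared with the class just below. Among CpGs whose mean over the RA-treated groups was at least 60%, members made up 5.20% of 24400 in tiles with a single measured CpG, 3.25% of 9158 with 2, 2.35% of 4301 with 3 to 4 and 3.16% of 538 with 5 to 8. Within such CpGs the share thus varied less with density than it did over all CpGs. Over the 4 classes of tile, from 1 measured CpG to 5 to 8, the members averaged 78.2%, 77.9%, 77.8% and 80.4% in RA-treated p53-null cells and 82.2%, 80.6%, 81.95% and 83.1% in RA-treated WT cells. In naive p53-null cells the means were 84.6%, 81.5%, 83.2% and 89.9%, the last over 17 members.

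**Figure D3:**
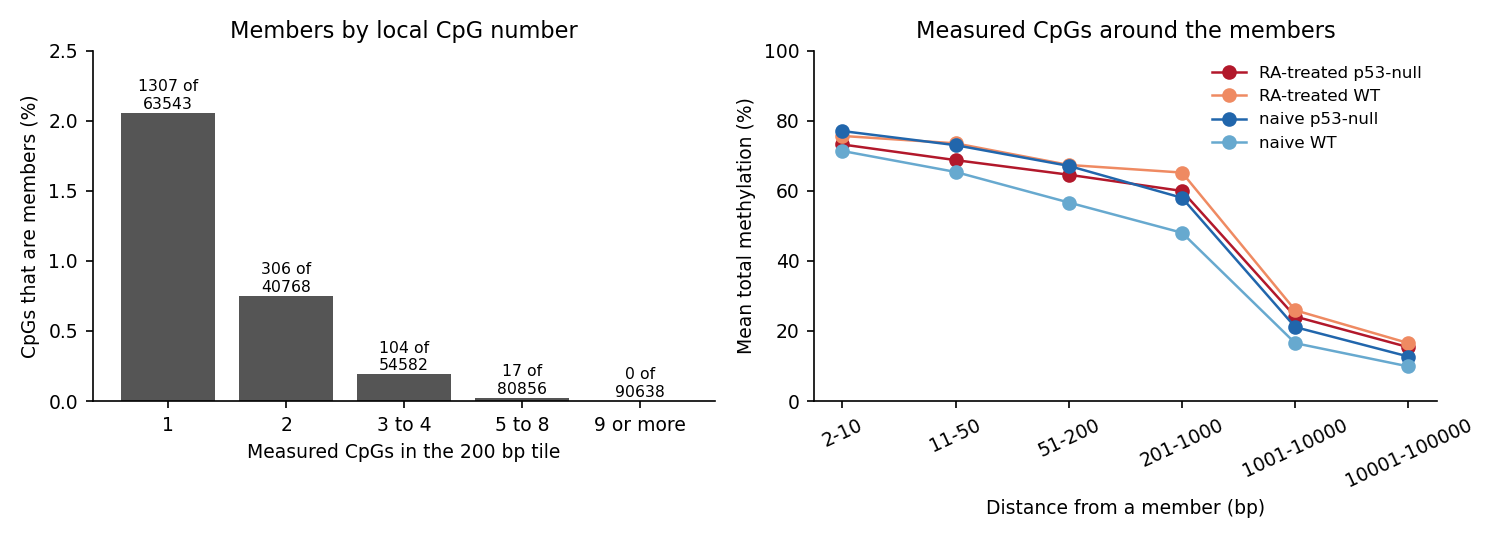
Left, the share of CpGs that are members (y axis, percent) by the number of measured CpGs in the 200 bp tile, with the counts above the bars; the share is 2.06% in tiles with 1 CpG and 0 in those with 9 or more. Right, mean total methylation (y axis, percent) of measured CpGs, members among them, by distance from a member (x axis, bp). Each group has a line, and a CpG near several members can count at several distances. The mean is above 60% in RA-treated WT cells up to 1000 bp and near the mean of all CpGs beyond 10000 bp.

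Members mostly stood alone. With members within 1000 bp joined, there were 1642 groups, of which 1557 were single members (89.8%), and 85 groups held 2 or more members, 177 in all. Only 6 groups held 3 or more. Another member lay within 10 bp of 36 members (2.08%), within 200 bp of 149 (8.59%), within 1000 bp of 177 (10.2%) and within 100000 bp of 463 (26.7%). Few had any measured CpG close by: 38.9% of members had one within 200 bp, against 87.7% of all CpGs, and 45.6% within 1000 bp, against 90.2%.

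Where a neighbour was measured, it was often methylated as well. Of the 103 CpGs that lay 2 to 10 bp from a member, 35.0% were members themselves, and of the 273 at 11 to 50 bp, 23.4% were. A CpG near several members can count at several distances. The share was 10.8% of the 595 CpGs at 51 to 200 bp, 8.07% at 201 to 1000 bp, 1.35% at 1001 to 10000 bp and 0.559% at 10001 to 100000 bp, the last close to the 0.525% of all CpGs. At 51 to 200 bp the mean level was 64.6% in RA-treated p53-null, 67.4% in RA-treated WT, 67.1% in naive p53-null and 56.7% in naive WT cells. At 1001 to 10000 bp the means were 24.1%, 25.9%, 21.1% and 16.5% in that order. No measured CpG within 200 bp of a member was at 0 in naive WT cells. CpGs this close can share reads with the member that defines the distance.

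The group with most members lay on chromosome 15 (mm9, 100374253 to 100374401), with 4 members among 5 measured CpGs in 149 bp. From the first to the last, these members were at 96%, 85%, 82% and 86% in RA-treated p53-null cells and at 97%, 91%, 91% and 93% in RA-treated WT cells. In naive p53-null cells they were at 93%, 96%, 77% and 100%, and in naive WT cells at 94%, 92%, 90% and 84%. The CpG that was no member, at 100374374, was at 72%, 79%, 89% and 73% in the same order of groups. Its neighbours were thus high in all groups, and RA-treated p53-null values were below RA-treated WT values at all 5 CpGs.

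Groups of 3 members lay on 5 other chromosomes. On chromosome 14 (95966674 to 95966714) the 3 CpGs were at 65%, 76% and 65% in RA-treated p53-null cells, at 73%, 83% and 80% in RA-treated WT cells, at 97%, 100% and 93% in naive p53-null cells and at 95%, 95% and 82% in naive WT cells. All 3 were lower in the RA-treated groups than in the naive ones of the same genotype. On chromosome 5 (145626768 to 145626939) the members averaged 89% in RA-treated p53-null, 85% in RA-treated WT, 91% in naive p53-null and 92% in naive WT cells. On chromosome 3 (87273258 to 87273292) the means were 82%, 87%, 80% and 84.7%, and on chromosome 1 (105306174 to 105306354) they were 77.7%, 70.7%, 91.7% and 85%. On chromosome 8 (49280200 to 49280262), 3 of 5 measured CpGs were members and averaged 79%, 92%, 88% and 83.3%. The other 2 CpGs there were at 95% and 79% in naive p53-null cells and at 47% and 64% in naive WT cells, so the high level did not extend to every CpG of this run in naive WT cells.

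Of the groups of 2 members named by position, that on chromosome 1 (181404062 to 181404298) averaged 51.5% in RA-treated p53-null, 70.5% in RA-treated WT, 77% in naive p53-null and 82% in naive WT cells. Its other 2 measured CpGs were at 53% and 37% in naive WT cells. Another on chromosome 1 (173413332 to 173413578) had 100% at all 3 measured CpGs in naive p53-null cells, against 86%, 75% and 80% in naive WT cells. The members on chromosome 1 (10719330 to 10719418) averaged 74.5%, 69.5%, 90% and 81.5%, and those on chromosome 10 (19736381 to 19736461) averaged 77%, 75.5%, 94.5% and 91%, in the order RA-treated p53-null, RA-treated WT, naive p53-null and naive WT. In both, RA-treated cells were the lower in either genotype. Which genes or repeats these positions belong to was not analysed here.

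The members were spread over the genome. They made up 0.328% of measured CpGs on chromosome 2, the lowest share among 20 chromosomes, and 0.910% on the X chromosome, the highest, with 45 of 4946. Among CpGs alone in their tile the share ranged from 1.42% on chromosome 11 to 3.42% on the X chromosome. A member was present in 1145 of the 2574 windows of 1 Mb with a measured CpG (44.5%). The most in any window was 6, reached by 2 windows of chromosome 5 that held 364 and 395 measured CpGs. Of the 8 windows with 5 or more members, that on chromosome 13 from 50 to 51 Mb had the fewest measured CpGs, with 5 members among 30.

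The tiles of the members add 5mC and 5hmC from the oxidative libraries. The 1734 CpGs fell into 1678 tiles of 200 bp, of which 1561 are in the authors' tile table. That table has 2 sets of embryonic stem cell columns whose headings name the genotypes but no cell state, called the first and the second set here, and 1345 and 1373 of these tiles have values in them. Over tiles with a single measured CpG in the CpG table, total methylation in the first set differed from the CpG's naive values by 6.40 points in p53-null and 5.94 points in WT columns, as the mean absolute difference. From its RA-treated values it differed by 13.1 and 20.03 points. For the second set the mean absolute differences were 6.53 and 7.23 points from the RA-treated values and 12.5 and 17.2 points from the naive ones. Since the headings give no state, none was assigned. Genotype contrasts in the first set, and its levels set beside other tiles, are treated as close to the choice and given as a description.

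In the first set, tiles with members had a mean total methylation of 74.3% in p53-null and 68.4% in WT cells, made up of 63.1% and 52.1% 5mC and 11.2% and 16.3% 5hmC. The p53-null minus WT differences were 5.91 points of total methylation, 11 points of 5mC and -5.07 points of 5hmC. The sign of each was the same on 20 of 20 chromosomes. All 246422 tiles of this set differed by 8.65, 9.51 and -0.859 points. As a share of total methylation, 5hmC made up 15.1% in p53-null and 23.8% in WT cells, against 20.1% and 28.9% in tiles with CpGs at 60% to 79% and 13.2% and 19.8% in all tiles. The members' tiles thus held more 5hmC in points than the average tile but a smaller share of it than the class below. The total of this set lies close to the naive values, so the choice favours a high total here. The 5hmC is computed from that total, so these comparisons are a description as well.

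In the second set the order of the genotypes was the other one. Total methylation averaged 67.9% in p53-null and 72.0% in WT cells, 5mC averaged 60.7% and 66.0%, and 5hmC averaged 7.28% and 6.03%. The p53-null minus WT difference was -4.05 points of total methylation, negative on 19 of 20 chromosomes, with a range from -5.88 to 1.49 points. For 5mC it was -5.30 points, again negative on all 20. For 5hmC it was 1.25 points, positive on 15 chromosomes and between -2.97 and 3.14 points. All 252014 tiles differed by -3.18, -4.07 and 0.884 points. The 5hmC share of total methylation was 10.7% in p53-null and 8.37% in WT cells, against 7.23% and 4.61% in all tiles. In tiles with CpGs at 60% to 79% it was 11.8% and 10.3%, so the members' tiles were again below that class.

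**Figure D4:**
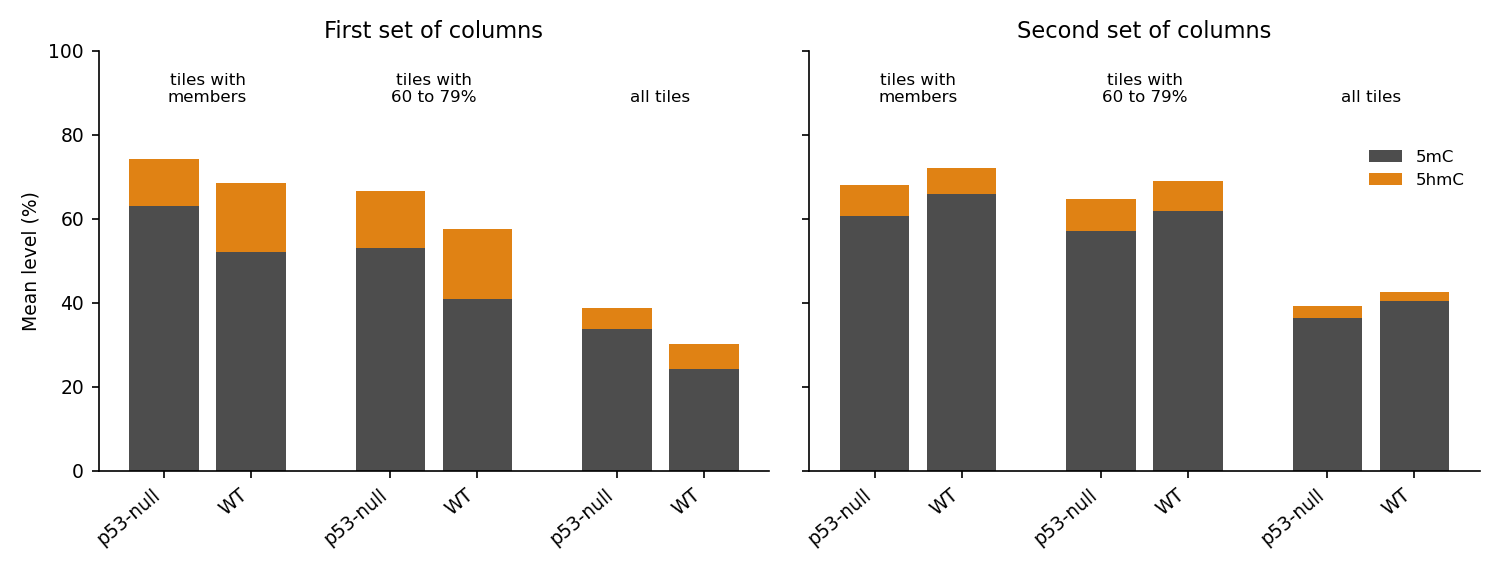
Mean 5mC (dark) and 5hmC (orange), stacked to total methylation (y axis, percent), in tiles with members, tiles with CpGs at 60% to 79% in naive WT cells and all tiles, for p53-null and WT columns of the first (left) and second (right) set. In tiles with members the p53-null columns hold 11.2% 5hmC in the first set and 7.28% in the second, and the WT columns 16.3% and 6.03%.

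A tile does not always match the CpG in it. At tiles whose single measured CpG was a member, total methylation in the second set was 68.8% in p53-null and 72.9% in WT columns, against 78.7% and 82.6% at the CpG in RA-treated cells, over 1037 tiles. The tile was thus lower by means of -9.90 and -9.76 points, while over all such tiles the means were -2.41 and -2.24 points. In the first set the tile was lower than the CpG's naive values by -9.53 points in p53-null and -15.6 points in WT cells, over 1019 tiles. Over all such tiles the means were -1.49 and -1.22 points. The naive WT value is the one that chose the members, so the choice favours a tile value below it. At the same member tiles the first set differed from the RA-treated values by means of -3.62 and -12.7 points, and the second set from the naive values by -16.1 and -12.9 points. As mean absolute differences at member tiles, the first set was 12.4 points from the RA-treated and 10.7 points from the naive values in p53-null columns, and 16.8 and 16.3 points in WT columns. How the tile values were averaged is not stated in the labels, and its part in this gap was not tested. A value of 5hmC at or under -10 points, which cannot be a true level, was listed for 3.57% of the members' tiles in p53-null and 2.30% in WT columns of the first set, and for 1.82% and 4.22% in the second. The same tiles were at or above 10 points in 47.7% and 61.9% in the first set and in 32.5% and 29.6% in the second.

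The authors' q-values, the only tests of single tiles here, gave few calls at the members among columns of the second set. Per the authors' deposited table, 60 of 1373 tiles (4.37%, against a background of 3.65% of all tiles) had lower total methylation in p53-null cells by at least 10 points with q under 0.05, and 5 had higher (0.364%, background 0.481%). For 5mC the authors' deposited table gave 211 tiles lower in p53-null cells (15.4%, background 12.3%) and 33 higher (2.40%, background 2.81%). These shares were near the background. For the first set, the authors' deposited table gave 353 of 1345 tiles with higher total methylation in p53-null cells (26.2%, background 28.1%) and 24 with lower (1.78%, background 0.786%). The 5mC of that set, in the authors' deposited table, had 624 tiles higher in p53-null cells (46.4%, background 36.6%) and 109 lower (8.10%, background 6.03%), against 50.4% and 6.65% in tiles with CpGs at 60% to 79%. With the stricter call of 25 points and q under 0.01, the first set of the authors' deposited table had 29 tiles with higher (2.16%, background 6.52%) and 2 with lower total methylation (0.149%, background 0.104%), and for 5mC 247 higher (18.4%, background 17.1%) and 30 lower (2.23%, background 2.03%). At that call the authors' deposited table listed, among tiles of the second set, 0 with higher (background 0.0476%) and 11 with lower total methylation (0.801%, background 0.493%), and for 5mC 2 higher (0.146%, background 0.597%) and 44 lower (3.205%, background 3.3%).

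Some tiles with members were listed with nearly all of their total methylation as 5hmC in WT columns of the first set. On chromosome 7 (mm9, 146785001 to 146785200) total methylation was 86.3% in p53-null and 85.9% in WT cells, while 5mC was 53.7% and 3.39%, so 5hmC was 32.6% and 82.5%. The authors' deposited table gives this 5mC difference a q of 1.08e-08. In the second set the same tile had 5hmC of 46.4% in p53-null and 4.62% in WT cells, with the genotypes in the opposite order. On chromosome 13 (78399201 to 78399400) 5hmC was 47.9% in p53-null and 93.8% in WT cells, where 5mC was listed at 0, and in the authors' deposited table the 5mC difference has a q of 0.00871. Tiles on chromosome 15 (31174401 to 31174600), chromosome 10 (80830401 to 80830600) and chromosome 1 (179567601 to 179567800) had 5hmC of 24.4%, 38.8% and 18.8% in p53-null cells, against 79.7%, 79.6% and 78.4% in WT cells. All 5 held a single measured CpG.

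The highest WT 5hmC in the second set was on chromosome 4 (16622401 to 16622600), with -2.76% in p53-null and 47.3% in WT cells. The next, on chromosome 4 (20140001 to 20140200), had 5hmC of 10.2% in p53-null and 46.0% in WT cells of that set, and 15.3% and 55.3% in the first set. On chromosome 1 (181404001 to 181404200), a tile of the member group described above, 5hmC was 32.9% in p53-null and 43.4% in WT cells of the second set. In the first set it was 54.3% and 16.2%, and in the authors' deposited table its 5mC difference there, 14.5% in p53-null and 33.3% in WT cells, has a q of 0.00138. The tiles on chromosome 3 (122545401 to 122545600) and chromosome 8 (127656601 to 127656800) had 5hmC of 5.81% and 21.7% in p53-null cells, against 43.3% and 42.1% in WT cells.

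The members' tiles were highly methylated in liver too. The liver values come from a pair of columns headed only by genotype. They were taken as liver because only the descriptions of the liver libraries name this table and liver has total methylation alone, so the assignment rests on that reading. Of the 1678 tiles, 1234 had a p53-null and 1353 a WT value, and total methylation averaged 88.9% in p53-null and 89.0% in WT liver, with medians of 93.1% and 93.2%. All tiles averaged 61.7% and 63.1%, and tiles with CpGs at 60% to 79% averaged 85.4% and 85.7%. At 80% or more were 1042 tiles in p53-null liver (84.4%) and 1139 in WT liver (84.2%), against 50.9% and 52.0% of all tiles. Among the 1226 tiles with both values, 960 were at 80% or more in both (78.3%), against 43.5% of all tiles.

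The genotypes of liver were close at these tiles. Over the 1226 tiles the mean was 88.8% in p53-null and 88.7% in WT liver, a difference of 0.110 points, with 560 tiles higher and 554 lower and with 10 of 20 chromosomes on each side. Higher in p53-null liver by at least 10 points were 132 tiles (10.8%, background 13.6%), and lower by as much were 123 (10.03%, background 14.6%). Both shares were below those of all tiles. At 25 points or more, 17 were higher (1.39%, background 3.39%) and 19 lower (1.55%, background 3.96%).

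**Figure D5:**
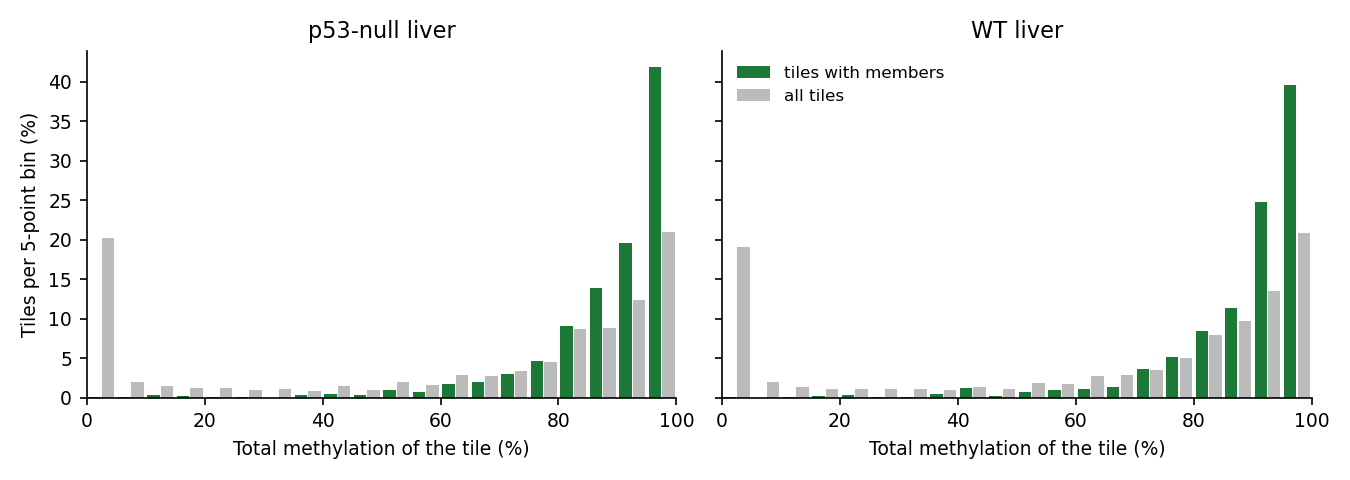
Share of tiles (y axis, percent) by total methylation of the tile (x axis, percent) in p53-null (left) and WT (right) liver, for tiles with members (green) and all tiles (grey). Tiles with members gather near 100%, with 84.4% of them at or above 80% in p53-null liver and 84.2% in WT liver, and almost none lie at the low end where all tiles have a second peak.

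A few tiles were an exception. Under 50% were 29 tiles in p53-null liver (2.35%) and 38 in WT liver (2.81%), and 20 were under 50% in both. The CpGs of these 20 tiles averaged 75.03% in RA-treated p53-null, 80.1% in RA-treated WT, 79.02% in naive p53-null and 79.3% in naive WT cells. By the mean of both genotypes, the lowest was on chromosome 15 (mm9, 85536401 to 85536600), at 5.41% in p53-null and 2.56% in WT liver. Its member CpG was at 70% in RA-treated p53-null, 92% in RA-treated WT, 100% in naive p53-null and 91% in naive WT cells, and the tile itself was at 65.8% in p53-null and 77.8% in WT cells of the second set. The next were on chromosome 7 (29547201 to 29547400), at 3.57% in p53-null and 12.8% in WT liver, and on chromosome 13 (56455201 to 56455400), at 10.8% and 18.2%. On chromosome 6 (90569201 to 90569400) liver was at 12.5% in p53-null and 16.7% in WT, and on chromosome 17 (45837801 to 45838000) at 12.5% and 22.5%. A tile on chromosome 9 (123420401 to 123420600), outside these 5 by that mean, was at 0% in p53-null and 41.7% in WT liver. At the 5 lowest by the mean, the embryonic stem cells of both genotypes were far above both livers, with tile totals in the second set of 43.4% to 68.6% in p53-null cells and of 53.6% to 77.8% in WT cells.

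At the other end, 109 tiles were listed at 100% in both livers. The first of these by position were all on chromosome 1, in the tiles at 13903601 to 13903800, 36048001 to 36048200, 43288801 to 43289000, 48580401 to 48580600 and 102586001 to 102586200. The first differed most between genotypes in 5mC of the first set, with 70.5% in p53-null and 6.52% in WT cells, while total methylation was 75% and 83.8%. In the authors' deposited table this 5mC difference has a q of 1.55e-11. The tile at 36048001 had 91.4% and 51.1% 5mC in the same columns, with a q of 9.51e-05 in the authors' deposited table. In WT cells of the first set, the other 4 named tiles were at 44.3% to 61.1% 5mC, around the mean of 52.1% of the members' tiles.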

How the data were processed

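RRBS and oxRRBS libraries of embryonic stem cells and RRBS libraries of liver are each given as 1 column per group, pooled by the authors. Their tools were methylKit, BSMAP and Trim Galore, and their build mm9, per the submitters' processing notes; coverage filters and library weights are not stated in the labels. The deposited table of single CpGs holds total methylation in percent, as whole numbers. The deposited tile table holds each 200 bp tile's level as a fraction, per the file headers, with the authors' q-value (an adjusted p-value) and 5hmC, which equals total minus 5mC within 0.001 points; fractions were multiplied to percent here. The deposited tile differences run WT minus p53-null, and their sign was turned here. A further 6 columns of values were not used.

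Members were CpGs at 80% or more in naive WT cells. The members, the lists and the rules for named sites were chosen with earlier results of these data known. Means, medians, counts and distances over CpGs or tiles were computed with Python 3.11.15, numpy 2.4.6, pandas 2.3.3 and matplotlib 3.10.9. The planned count model and the leaving out of libraries need counts or values per library and were not run; depth is unknown. The counting steps were tested on simulated data. Named sites, 1 per 1000 bp and none on chromosome 18, were the 10 largest groups of members, the 5 largest differences each way in RA-treated cells, the 5 lowest values in naive p53-null and in RA-treated WT cells, and the 5 tiles lowest and highest in the mean of both livers and highest in WT 5hmC of each set, with ties in order of position. Alternatives were a limit of 90%, each tile counting once, autosomes only, other distances, a window of 500 bp, tiles whose measured CpGs are all members, a stricter call and, added after seeing the data, leaving out the CpGs at 100% in every group. A result was taken as moved when it changed by more than the SD over 20 chromosomes. Counts were judged by their factor of change instead, without an SD.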

Additional observations from a re-analysis of the deposited data

How the results depend on the processing

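With the limit at 90% in naive WT cells, 368 CpGs were members; they averaged 81.6% in RA-treated p53-null, 84.6% in RA-treated WT, 89.0% in naive p53-null and 94.4% in naive WT cells. The p53-null minus WT difference in naive cells was then -5.32 points and the RA-treated minus naive difference in WT cells -9.82 points, and both hold the value that sets the limit. The mean number of measured CpGs around a member was 0.223 times that around all CpGs by tile and 0.119 times within 500 bp on each side. In tiles whose measured CpGs are all members, 5mC in WT columns of the first set was 53.8%. With 25 points and q under 0.01 in the authors' deposited table, total methylation in the first set was higher in p53-null cells at 29 tiles and lower at 2, and 5mC was higher at 247 and lower at 30; in the second set the counts were 0 and 11 for total methylation, and 2 and 44 for 5mC. A stricter call can only lower these counts. Levels, shares, ratios and counts cannot be negative, so only the differences between groups and mean 5hmC could change sign. None of these did so under the settings applied to them. For the differences that hold the naive WT value, a higher limit favours the negative sign they already had. Autosomes only left 18 of 18 results within their spread over chromosomes, each tile counting once 8 of 8, and leaving out the 42 CpGs at 100% in every group, chosen after seeing the data, 9 of 9 results on CpGs and 10 of 10 on tiles. These 42 CpGs have no difference between groups, so leaving them out could not change the sign of a difference at the CpGs.

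No paired analysis was possible because each group is 1 pooled column, and for the same reason no library was left out. Depth is unknown, so how much of the spread at single CpGs is reading error was not tested. The tile sets carry no cell state, and the liver columns are named by genotype alone.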

Other observations

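The 42 CpGs listed at 100% in all 4 embryonic stem cell groups differed from the remaining members in the values of their tiles, as seen after their levels were known. Of these CpGs, 34 were the single measured CpG of their tile. In the first set, total methylation of their tiles averaged 54.5% in p53-null and 44.2% in WT columns over 35 tiles, against 74.9% and 69.1% over the tiles of the other members. In the second set it averaged 53.6% and 55.7% over 37 tiles, against 68.3% and 72.4%. Tiles under 60% numbered 19 in p53-null and 30 in WT columns of the first set. Their 5hmC was near 0, at 3.29% in p53-null and 2.53% in WT columns of the first set, and in the second they were 2.55% and -0.225%, while the tiles of the other members held 11.4% and 16.7%, and 7.41% and 6.20%. In liver the tiles of the 42 CpGs averaged 78.7% in p53-null and 79% in WT, against 89.2% and 89.3% for the others. Of the 20 tiles under 50% in both livers, 2 belonged to these CpGs, on chromosome 14 (mm9, 105392001 to 105392200) and on the X chromosome (30288201 to 30288400). A further 35 members were at 100% in naive WT cells but not in every group.

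Near the first tile of its chromosome lay 150 members within 10 Mb (8.65%, where 6.35% of measured CpGs lie) and 75 within 5 Mb (4.33%, where 3.69% lie). Near the last tile lay 210 members within 10 Mb (12.1%, where 11.7% lie) and 90 within 5 Mb (5.19%, where 5.85% lie). Among CpGs alone in their tile, the share of members within 10 Mb of the first tile was 2.73%, against 2.01% elsewhere, and within 10 Mb of the last tile it was 1.96%, against 2.07%. These shares were not tested.

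The 17 members in tiles with 5 to 8 measured CpGs averaged 80.4% in RA-treated p53-null, 83.1% in RA-treated WT, 89.9% in naive p53-null and 86.4% in naive WT cells. Of these, 4 were in the run on chromosome 15 and 2 each on chromosome 14 (93249682 to 93249777), chromosome 15 (71429655 to 71429671) and chromosome 8 (49280245 to 49280262). The others were each the only member of their tile, on chromosomes 2, 4, 7, 10, 11 and 16. At the pair on chromosome 14 both CpGs were at 81% in RA-treated p53-null and at 73% in RA-treated WT cells, with 85% and 93% in naive p53-null and the same values in naive WT cells.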
